A study of Homo sapiens with 6 samples.

Results

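Transcripts of 28 genes of cholesterol synthesis and its control were followed in THP-1, an established line of human monocytic leukaemia cells, 24 h after a microRNA mimic was transfected into them. The genes were taken by name from a list that was chosen with earlier results of these data known. It held enzymes of the mevalonate and sterol pathway, proteins that control the transcription factor SREBP2, and target genes of SREBP2. All 28 were in the count table, out of 26347 gene identifiers in all, and all 28 passed the filter on low counts that left 14731 genes for testing. Of the 6 libraries, 3 came from cells given a miR-125a-5p mimic and 3 from cells given a negative control mimic. All cells were grown in RPMI medium with fetal bovine serum. The line comes from 1 patient's leukaemia, the labels name no differentiation step although the study's title speaks of macrophages, and they speak of triplicate transfections but not of separate cultures or days. The p-values below therefore rest on a spread among libraries that may be technical.

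Cholesterol is built from acetyl-CoA, first into mevalonate and isoprenoid diphosphates, then into squalene, lanosterol and finally cholesterol. When the membrane of the endoplasmic reticulum is poor in sterol, the escort protein SCAP carries SREBP2 to the Golgi apparatus, where a pair of proteases releases the active factor, which then raises transcription of nearly every enzyme of the pathway. When sterol is plentiful, INSIG proteins hold SCAP back, and the pathway's transcripts fall together. In monocytes and macrophages this system balances synthesis against the cholesterol taken up from lipoproteins and engulfed cells.

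The mimic carries the sequence of the mature microRNA, which pairs through its seed, bases 2 to 8, with matching sites in 3′ untranslated regions (3′ UTRs). The mature sequence, from RefSeq (GRCh38.p14, chr19:51693268-51693291, plus strand), is shown with the seed in capitals because it defines the sites searched in the sterol genes.
miR-125a-5p: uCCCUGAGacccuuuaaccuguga
An 8mer is CTCAGGGA, a 7mer-m8 CTCAGGG, a 7mer-A1 TCAGGGA and a 6mer TCAGGG. In the longest 3′ UTR annotated in GENCODE 29 (GRCh38, not the build of the counts), 0 of the 28 genes held an 8mer, against 5.95% of 12789 tested genes with such a UTR. The 7mer-m8 was the best match in 5 of the 28, MVK, LSS, DHCR7, SREBF2 and SCAP, and the 7mer-A1 in 1, TM7SF2. Over all searched genes these shares were 10.3% and 7.94%. HMGCS1 and CYP51A1 held the 6mer alone, and the other 20 had no match in that UTR. The 6 matches of 7 bases are printed as they read in the transcript, with the match in capitals, because they are the longest matches to the seed found among the sterol genes.
MVK, chr12:109596995-109597001, plus strand: gccccctgtctCTCAGGGccaggcctctc
LSS, chr21:46189863-46189869, minus strand: cagctcacatgCTCAGGGccacctgagac
DHCR7, chr11:71434591-71434597, minus strand: ggaacttcaccCTCAGGGgcctcccacac
SREBF2, chr22:41906419-41906425, plus strand: gttagcccaagCTCAGGGtaggcccaggg
SCAP, chr3:47414599-47414605, minus strand: cttcagggccaCTCAGGGgccatcacgac
TM7SF2, chr11:65116315-65116321, plus strand: gtcagcactgaTCAGGGAgaagctgagca
The match lay in the last exon of MVK, LSS, DHCR7, SREBF2 and TM7SF2. The class was found in both annotated 3′ UTRs of SREBF2 and of DHCR7, in 5 of 6 of MVK, in 2 of 4 of LSS and in 1 of 2 of TM7SF2. The SCAP match is of another kind: it lay in exon 20 of 22, in the 3′ UTR of 1 of 4 transcripts, and fell in the coding sequence of 3 others.

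Library depth ran from 8256149 to 9356861 counts in the miR-125a-5p group and from 8423228 to 10257791 counts in the control group. Levels are given as CPM, the counts of a gene scaled to the library's total after edgeR's normalization by trimmed mean of M-values. In a principal component analysis of log2 CPM, control library 1 stood apart on the first component (25% of the variance) and miR-125a-5p library 3 on the next (21.2%). No pair of replicates agreed within sampling noise. The monocytic identity was checked with 12 marker genes. For all markers, CPM was scaled to the library's total alone, without that normalization. The summed level of the 12 ran from 3689 to 3720 CPM over the miR-125a-5p libraries and from 3629 to 3998 CPM over the controls. Of the 12, 11 averaged at least 5 CPM and MPO was below that. None of the 19 markers of T cells, B cells, epithelium, fibroblasts, erythroid cells and hepatocytes averaged 5 CPM, and CD3E, HBB, HBA1, KRT18 and KRT19 were at 0 in all 6 libraries. By edgeR's quasi-likelihood test with Benjamini-Hochberg adjustment, 0 genes were higher and 4 lower after miR-125a-5p among all 14731 tested, none of the 4 being a sterol gene.

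The levels of the pathway were uneven along its length. Levels between genes are given per exon length, as TPM, a share of transcripts computed from the counts and the exon lengths of GENCODE 29. The length joins the exons of all coding transcripts of a gene, and the order of the genes depends on it. By CPM, FDFT1 was above ACAT2 and ACAT2 above FDPS, at means of 404, 300 and 206 in control libraries. FDPS, which joins isoprenoid units into farnesyl diphosphate, was the most abundant at 355 ± 10.0 TPM in miR-125a-5p and 355 ± 25.1 TPM in control libraries (SD, n = 3 each). ACAT2, the cytosolic thiolase that opens the pathway, averaged 305 ± 19.9 TPM in miR-125a-5p and 268 ± 16.1 TPM in control libraries. FDFT1, squalene synthase, stood beside it at 303 ± 31.2 TPM in miR-125a-5p and 249.7 ± 6.86 TPM in control libraries. ACAT2 and FDFT1 did not differ in level beyond their spread in miR-125a-5p libraries, and all 3 were far above the rest. The next in order, SQLE, which oxidises squalene, had 103 ± 5.45 TPM in miR-125a-5p and 93.4 ± 11.9 TPM in control libraries. At the low end were MVK, mevalonate kinase, at 2.51 ± 0.434 TPM in miR-125a-5p and 2.62 ± 0.268 TPM in control libraries, and TM7SF2, a sterol reductase of the lanosterol branch, at 5.81 ± 1.81 TPM in miR-125a-5p and 6.54 ± 1.01 TPM in control libraries. MVK and TM7SF2 had at most 32 and 40 raw reads per library, so their differences are the least precise of the 28. Between them and the rest stood LSS, which closes the sterol ring, at 10.6 ± 1.92 TPM in miR-125a-5p and 10.6 ± 1.21 TPM in control libraries. Among the control genes SREBF2 had 82.7 ± 14.1 TPM in miR-125a-5p and 83.3 ± 7.10 TPM in control libraries, near INSIG1 at 89.4 ± 10.2 TPM in miR-125a-5p and 72.8 ± 8.82 TPM in control libraries. In miR-125a-5p libraries the ranges of mean ± SD of these genes overlapped with those of IDI1 and CYP51A1. SCAP, INSIG2 and MBTPS2 were all below 20 TPM in both groups.

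**Figure D1:**
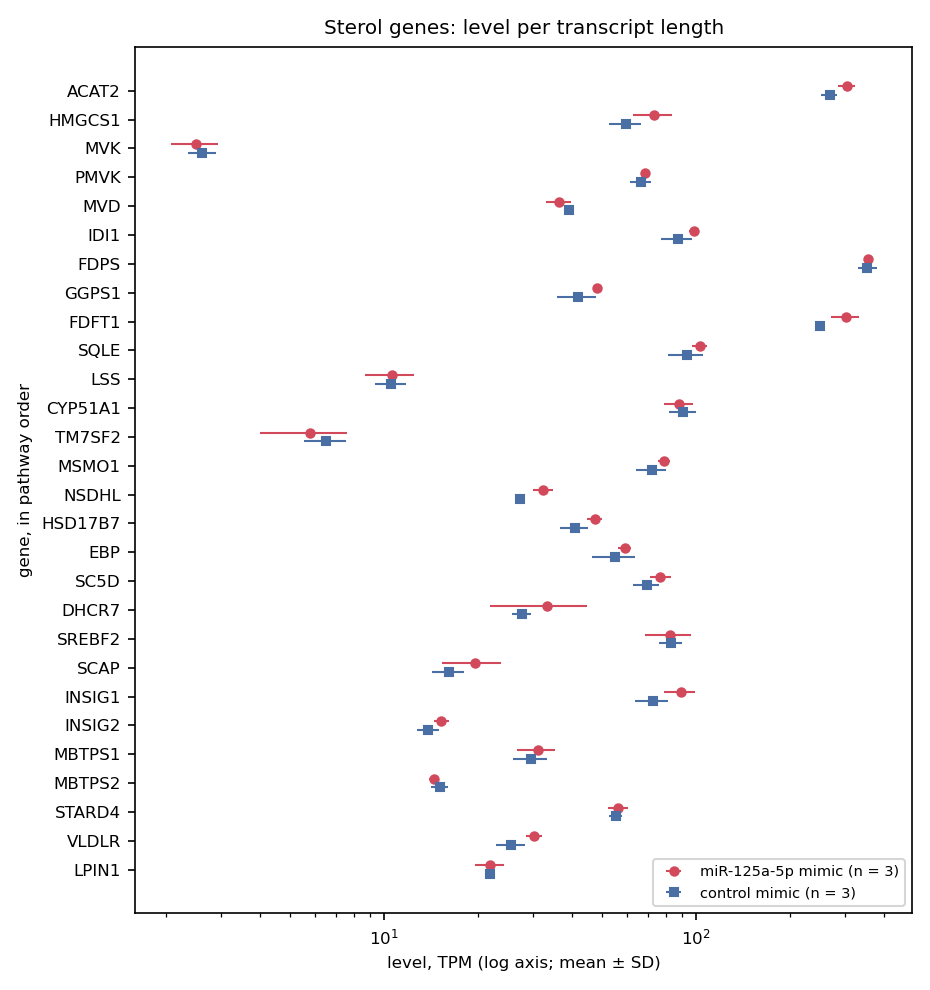
Level of the 28 sterol genes in TPM on a log axis, with genes from top to bottom in pathway order, as mean ± SD of 3 miR-125a-5p libraries (circles) and 3 control libraries (squares). FDPS, ACAT2 and FDFT1 lie above all others, MVK and TM7SF2 below them, and the circles and squares of a gene lie close together against this range.

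The main comparison asked how these 28 transcripts differed after the miR-125a-5p mimic. No sterol gene passed the test over all genes: edgeR's quasi-likelihood test called 0 of 28 higher and 0 lower, where it called 0% and 0.0272% of all genes tested, and DESeq2, limma voom and edgeR's likelihood ratio test also called 0. The differences were small and mostly of one sign. Of the 28 genes, 22 had a positive log2 fold change, against 50.2% of all genes tested, and the median was 0.14 on the log2 scale, against 0.00 for all genes. The values ran from -0.17 for TM7SF2 to 0.30 for HMGCS1. At an unadjusted p under 0.05 there were 5 of 28 higher, where all genes gave 2.69%, and 0 lower, where all genes gave 3.22%. The 5 were FDFT1, INSIG1, HMGCS1, VLDLR and ACAT2. In 6 of 28 every miR-125a-5p library lay above every control library, where all genes gave 5.31%, and in 0 the reverse held, where all genes gave 5.9%. Those 6 were ACAT2, IDI1, FDFT1, NSDHL, HSD17B7 and VLDLR. The summed level of the 28 was 2508 ± 88.2 CPM in miR-125a-5p and 2260 ± 102 CPM in control libraries (SD, n = 3 each), a ratio of 1.11. This sum leans on abundant genes. The largest differences in mean CPM were those of FDFT1, 491 in miR-125a-5p against 404 in control libraries, and ACAT2, 342 against 300. Since RNA came from whole cultures, more RNA per cell and more cells that make it cannot be told apart.

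The counts rested in part on single libraries. Without control library 2 the median was 0.07, 20 of 28 were positive and 1, FDFT1, was at an unadjusted p under 0.05, a share near the 2.48% of all genes higher at that p in the same fit. Without miR-125a-5p library 1 there were 3 at that p, DHCR7, FDFT1 and VLDLR, where all genes gave 2.41%, and the median was 0.14. Without miR-125a-5p library 3 the median was 0.10 and 18 of 28 were positive. FDFT1 was at an unadjusted p under 0.05 in all 6 edgeR fits that left out 1 library. HMGCS1, INSIG1, ACAT2 and VLDLR each missed it in more than 1 of these fits. ACAT2 reached it only in the fits without miR-125a-5p library 2 and without control library 3.

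**Figure D2:**
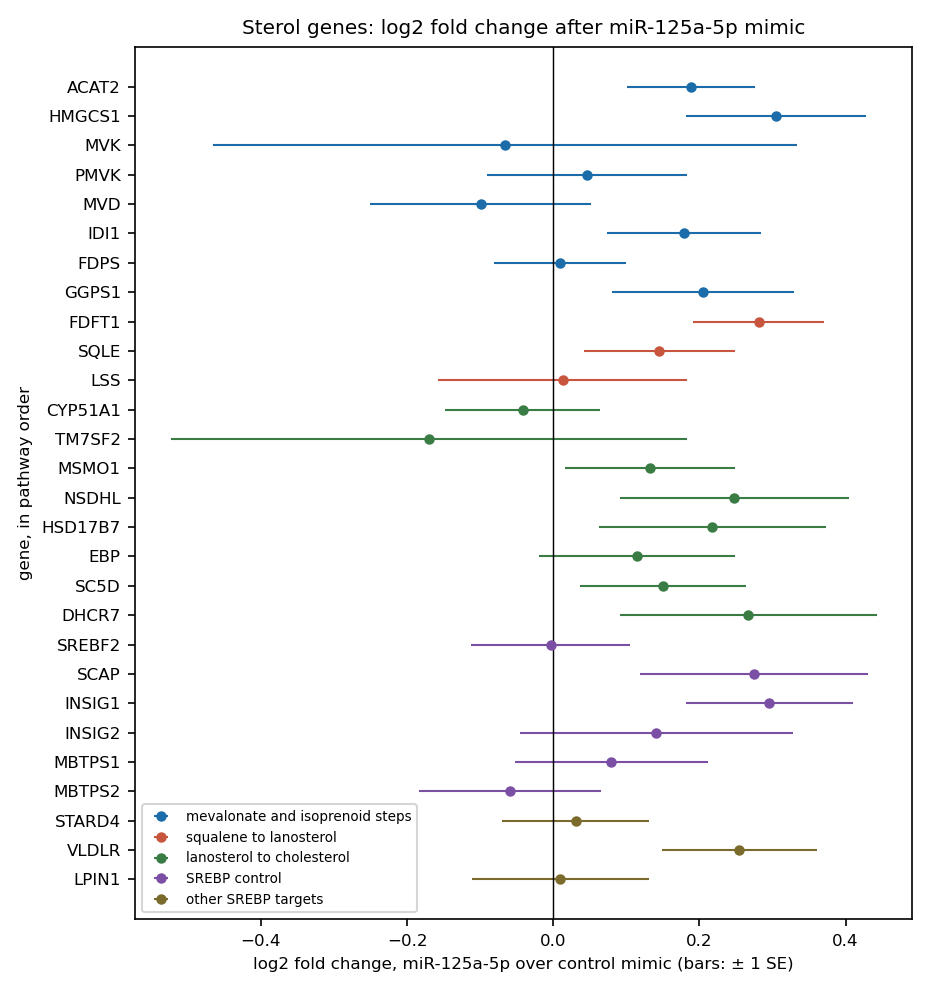
Log2 fold change of each sterol gene, miR-125a-5p over control mimic, with bars of 1 SE from edgeR and genes in pathway order, coloured by role. Most points lie to the right of 0, between 0.01 and 0.30, and no gene passed adjustment over all genes.

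Among the 8 genes of the mevalonate and isoprenoid steps, 6 had a positive and 2 a negative log2 fold change, with a median of 0.11, and none passed. HMGCS1, the synthase that makes HMG-CoA (chromosome 5, minus strand, 43289395 to 43313512 on GRCh38), had 96.8, 103 and 75.8 CPM in miR-125a-5p libraries 1, 2 and 3, against 81.4, 63.0 and 78.4 CPM in control libraries 1, 2 and 3. The groups overlapped, because miR-125a-5p library 3 was below 2 of the controls. Its log2 fold change of 0.30 was the largest of the 28 (SE 0.12, edgeR adjusted p = 0.739), and it was 0.20 without control library 2, where the level was lowest, and 0.42 without miR-125a-5p library 3. ACAT2 had 357, 324 and 345 CPM in miR-125a-5p libraries and 298, 288 and 315 CPM in control libraries. Every miR-125a-5p library was above every control, with a log2 fold change of 0.19 (SE 0.09, edgeR adjusted p = 0.833). The ACAT2 count is uncertain because its exons share bases with genes on the opposite strand, 34.8% of them with SOD2, 45.9% with SOD2-OT1 and 12.5% with TCP1, and no source used here gives the strand setting of the counting. HMGCS1 shares 19.9% of its exon bases in this way with AC114947.2.

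IDI1, which turns isopentenyl diphosphate into its reactive isomer, had 131, 125 and 128 CPM in miR-125a-5p libraries and 124, 95.8 and 118 CPM in control libraries. The miR-125a-5p libraries were all higher, but by little over control library 1, and the log2 fold change was 0.18 (SE 0.11, edgeR adjusted p = 0.882). GGPS1, which makes the geranylgeranyl diphosphate used to anchor small GTPases in membranes, had 53.1, 54.7 and 50.5 CPM in miR-125a-5p libraries and 47.1, 38.6 and 51.6 CPM in control libraries. Control library 3 lay within the range of the miR-125a-5p libraries, and the log2 fold change was 0.20 (SE 0.12, edgeR adjusted p = 0.884). GGPS1 shares 11.3% of its exon bases with TBCE on the same strand, so its count may hold other reads. The enzymes between HMGCS1 and IDI1 lay nearer to 0. PMVK, phosphomevalonate kinase, had a log2 fold change of 0.05 (SE 0.14), MVK of -0.07 (SE 0.40) and MVD, which decarboxylates mevalonate diphosphate, of -0.10 (SE 0.15). FDPS, the most abundant gene of the set by TPM, had 199, 217 and 205 CPM in miR-125a-5p libraries and 199, 202 and 217 CPM in control libraries. The groups covered the same range, at a log2 fold change of 0.01 (SE 0.09). GENCODE names 8 FDPS pseudogenes, and 28.9% of the exon bases of FDPS are shared with RUSC1-AS1 on the opposite strand, so its count may hold other reads.

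From farnesyl diphosphate on, FDFT1 had the smallest p of the 28, at rank 116 among all genes tested. FDFT1 (chromosome 8, plus strand, 11795573 to 11839309 on GRCh38) had 455, 476 and 543 CPM in miR-125a-5p libraries, against 411, 393 and 409 CPM in control libraries. All miR-125a-5p libraries were above all controls, the controls lay close together, and miR-125a-5p library 3 was the highest. The log2 fold change was 0.28, a level 21.5% higher (SE 0.09, edgeR adjusted p = 0.543), and it stayed between 0.20 and 0.33 when any 1 library was left out. SQLE had 111, 104 and 109.8 CPM in miR-125a-5p libraries and 90.4, 93.1 and 109.4 CPM in control libraries. Control library 3 reached the miR-125a-5p range, and the log2 fold change was 0.15 (SE 0.10, edgeR adjusted p = 0.898). LSS, which carries a 7mer-m8, had 17.2, 19.2 and 24.0 CPM in miR-125a-5p libraries and 18.2, 20.1 and 21.5 CPM in control libraries, with a log2 fold change of 0.01 (SE 0.17). Its lowest and highest libraries were both miR-125a-5p libraries.

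Of the 8 enzymes from lanosterol to cholesterol, 6 had a positive and 2 a negative log2 fold change, with a median of 0.14, and none passed or reached an unadjusted p under 0.05. NSDHL, a dehydrogenase of the reaction that strips methyl groups from the sterol ring, had 20.9, 23.6 and 24.1 CPM in miR-125a-5p libraries and 19.2, 19.4 and 19.1 CPM in control libraries. The controls differed by less than 1 CPM and all lay below the miR-125a-5p libraries, at a log2 fold change of 0.25 (SE 0.16, edgeR adjusted p = 0.884). HSD17B7, the ketoreductase of the same reaction, had 24.8, 23.5 and 22.2 CPM in miR-125a-5p libraries and 18.6, 21.0 and 21.1 CPM in control libraries. The groups did not overlap here either, at a log2 fold change of 0.22 (SE 0.16, edgeR adjusted p = 0.898), though a pseudogene of HSD17B7 in the table held 398 reads against 1169 for the gene itself, and reads of such copies can be split. MSMO1, the oxidase of the same reaction, had 67.4, 71.95 and 73.5 CPM in miR-125a-5p libraries and 75.2, 57.0 and 61.9 CPM in control libraries, so that a control was the highest of all 6.

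DHCR7, the last reductase of one branch of the pathway, had 23.7, 27.1 and 43.4 CPM in miR-125a-5p libraries and 24.9, 26.4 and 26.8 CPM in control libraries. A single library, miR-125a-5p library 3, stood far above the other 5: the log2 fold change of 0.27 (SE 0.18, edgeR adjusted p = 0.894) was -0.04 without it. SC5D, the desaturase ahead of DHCR7, had a log2 fold change of 0.15 (SE 0.11), and EBP, the isomerase before it, of 0.11 (SE 0.13), which was 0.01 without control library 1. CYP51A1, which takes the first methyl group from lanosterol, had 114, 94.2 and 106 CPM in miR-125a-5p libraries and 108, 97.1 and 117 CPM in control libraries. The groups covered nearly the same range, at a log2 fold change of -0.04 (SE 0.11). TM7SF2 had the lowest value of the 28, -0.17 (SE 0.35), with 3.29, 2.61 and 4.67 CPM in miR-125a-5p libraries and 3.43, 4.03 and 4.42 CPM in control libraries. Its SE was larger than its difference.

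**Figure D3:**
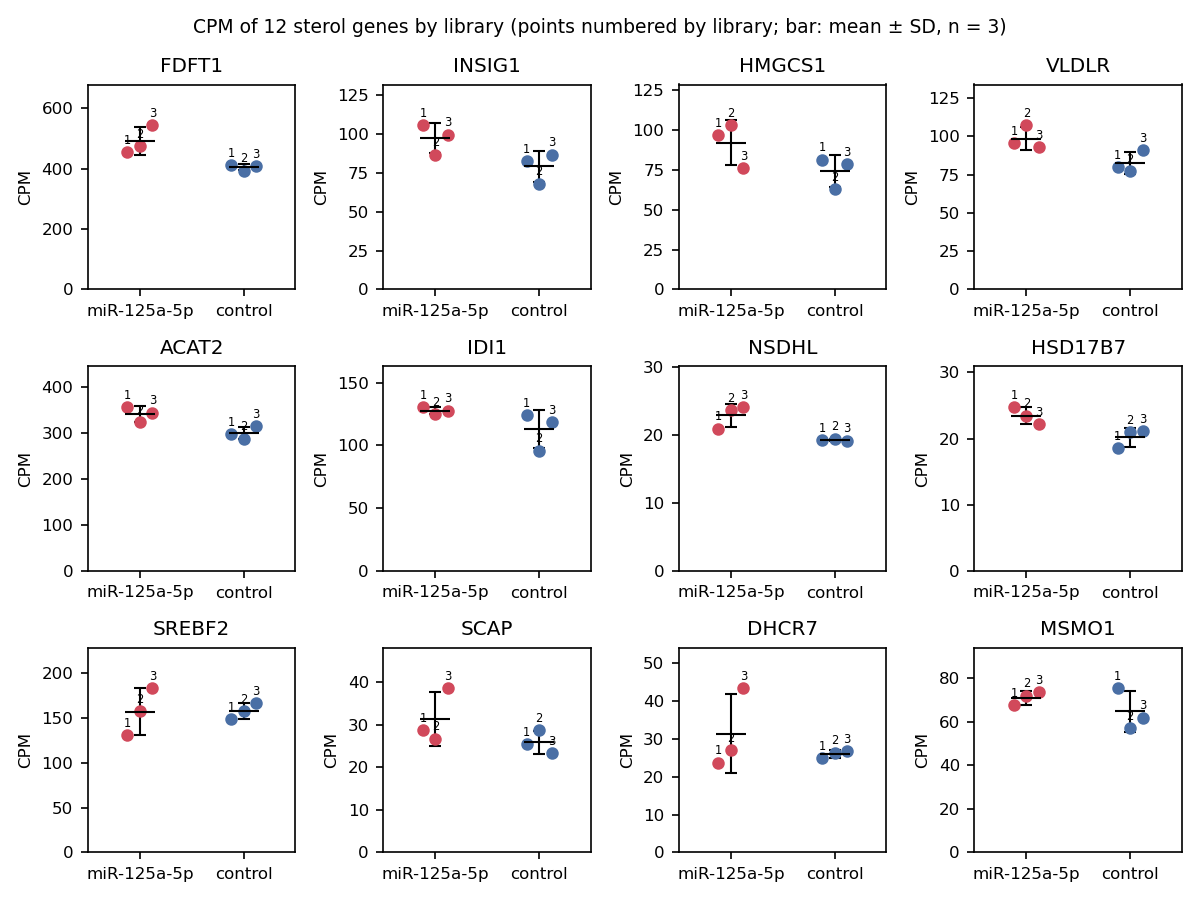
CPM of 12 sterol genes in the 3 miR-125a-5p libraries (left in each panel) and the 3 control libraries (right), each point numbered by its library, with mean ± SD and axes that start at 0. The panels show the 5 genes with the smallest edgeR p, the others whose groups do not overlap, and SREBF2, SCAP, DHCR7 and MSMO1. Of all 28 genes the groups were apart in 6, and all 6 are shown here. FDFT1, NSDHL and HSD17B7 show no overlap of groups, whereas in DHCR7 and SCAP miR-125a-5p library 3 lies above the other 5.

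The proteins that control SREBP2 were set beside the enzymes. Of the 6 control genes, 4 had a positive and 2 a negative log2 fold change, with a median of 0.11, and of the 19 enzymes 15 were positive and 4 negative, with a median of 0.15. No control gene passed, and in none of the 6 were the groups apart. SREBF2, the gene of the transcription factor, had 131, 157 and 183 CPM in miR-125a-5p libraries and 148, 157.5 and 166 CPM in control libraries. Its lowest and highest libraries were both miR-125a-5p libraries, and the means lay together, at 157 ± 26.0 CPM in miR-125a-5p and 157 ± 8.77 CPM in control libraries (log2 fold change -0.00, SE 0.11, edgeR adjusted p = 0.998). SCAP had 28.8, 26.7 and 38.6 CPM in miR-125a-5p libraries and 25.5, 28.8 and 23.4 CPM in control libraries. As for DHCR7, library 3 of the miR-125a-5p group was the high one, and the log2 fold change of 0.28 (SE 0.16, edgeR adjusted p = 0.869) was 0.10 without it.

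INSIG1, which is both a brake on SCAP and a target of SREBP2, had the largest log2 fold change of the control genes. INSIG1 (chromosome 7, plus strand, 155297776 to 155310235 on GRCh38) had 106, 86.6 and 99.7 CPM in miR-125a-5p libraries and 82.6, 68.0 and 86.8 CPM in control libraries. The groups overlapped by the narrowest margin, since control library 3 was just above miR-125a-5p library 2, and the log2 fold change was 0.30 (SE 0.11, edgeR adjusted p = 0.694). It was 0.20 without control library 2. Its paralog INSIG2, which is less dependent on SREBP2, had 14.3, 13.4 and 14.3 CPM in miR-125a-5p libraries and 12.4, 12.1 and 13.6 CPM in control libraries, with a log2 fold change of 0.14 (SE 0.19). The difference between INSIG1 and INSIG2 was not tested. The genes of the Golgi proteases were near 0: MBTPS1, which makes the first cut in SREBP2, had a log2 fold change of 0.08 (SE 0.13) and MBTPS2, which makes the next one inside the membrane, -0.06 (SE 0.12).

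The last 3 genes lie outside the pathway but are known SREBP targets. VLDLR, a receptor that takes up lipoproteins rich in triglyceride (chromosome 9, plus strand, 2621834 to 2660053 on GRCh38), had 95.4, 107 and 93.1 CPM in miR-125a-5p libraries and 79.8, 77.1 and 90.8 CPM in control libraries. The groups did not overlap, and the log2 fold change was 0.25 (SE 0.11, edgeR adjusted p = 0.775). STARD4, which moves cholesterol between membranes through the cytosol, had 109, 105 and 118 CPM in miR-125a-5p libraries and 116, 108 and 100.2 CPM in control libraries. LPIN1, a phosphatidate phosphatase of glycerolipid synthesis, had 42.3, 47.2 and 52.2 CPM in miR-125a-5p libraries and 48.1, 46.3 and 46.3 CPM in control libraries. For both the groups overlapped, with log2 fold changes of 0.03 (SE 0.10) and 0.01 (SE 0.12).

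By library, both ends of the range stood out. MiR-125a-5p library 3 held the highest level of 11 of the 28 genes and control library 2 the lowest of 11, and control library 2 held the highest of 0. The median deviation of the 28 genes from their own mean over 6 libraries was 0.02, 0.02 and 0.11 on the log2 scale in miR-125a-5p libraries 1, 2 and 3, against -0.08, -0.11 and -0.00 in control libraries 1, 2 and 3. The medians over all genes were within 0.01 of 0 in every library. The genes behind these values differed in part. HMGCS1, IDI1, GGPS1, INSIG1 and MSMO1 were lowest in control library 2 but not highest in miR-125a-5p library 3. DHCR7, SCAP, LSS, TM7SF2 and SREBF2 were highest in miR-125a-5p library 3 but not lowest in control library 2. For SC5D and FDFT1 both held. The genes named here were chosen after their values were seen.

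**Figure D4:**
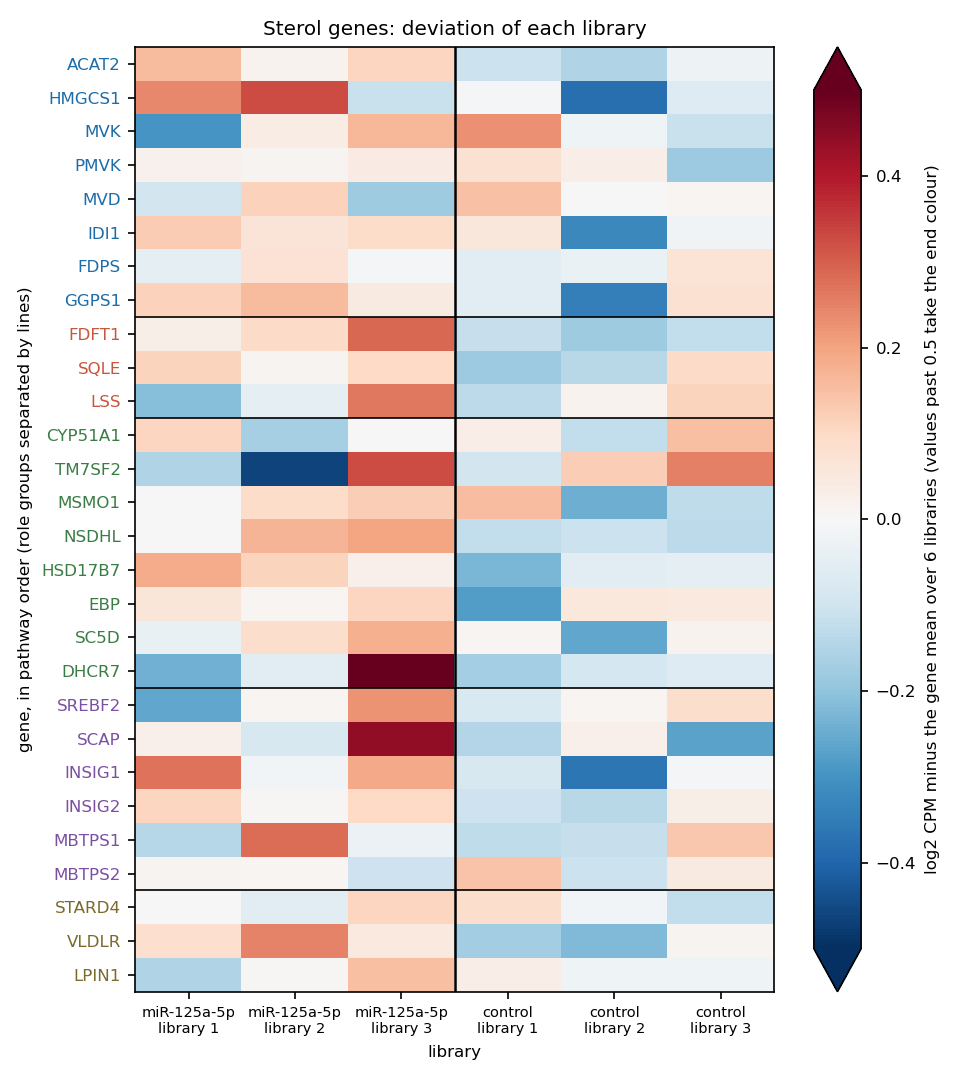
Log2 CPM of each sterol gene in each library minus the mean of that gene over 6 libraries, with the 3 miR-125a-5p libraries to the left and genes in pathway order. Of the 28 genes, 22 lie above their mean in miR-125a-5p library 3, with DHCR7 at 0.62 past the end of the colour scale, and 6 do in control library 2.

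Base composition moved with these library values. GC content, taken from the longest coding transcript, was 58.0% to 74.0% in the top quintile of tested genes, and for the median deviation of that quintile miR-125a-5p libraries 1, 2 and 3 had -0.10, -0.00 and 0.09, and control libraries 1, 2 and 3 had 0.01, 0.06 and -0.01. In the lowest quintile, up to 41.0% GC, the miR-125a-5p libraries had 0.06, 0.01 and -0.02, and the control libraries 0.00, -0.04 and -0.01. The 10 sterol genes in the upper 2 quintiles had a median deviation of -0.12 in miR-125a-5p library 1 and 0.20 in library 3, whereas the 18 others had 0.09 and 0.10. In control libraries 1, 2 and 3 the 10 had -0.08, 0.01 and 0.03, and the 18 others -0.07, -0.14 and -0.01. Those 10 had a median log2 fold change of 0.01, with 6 positive and 4 negative, and the 18 others 0.16, with 16 positive and 2 negative. With the GC trend of each library removed, an alternative added after the data were seen, the median over the 28 was 0.11, 22 were positive, 0 passed, and 6 were at an unadjusted p under 0.05, where all genes of that fit gave 3.21%, SCAP having joined the other 5.

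**Figure D5:**
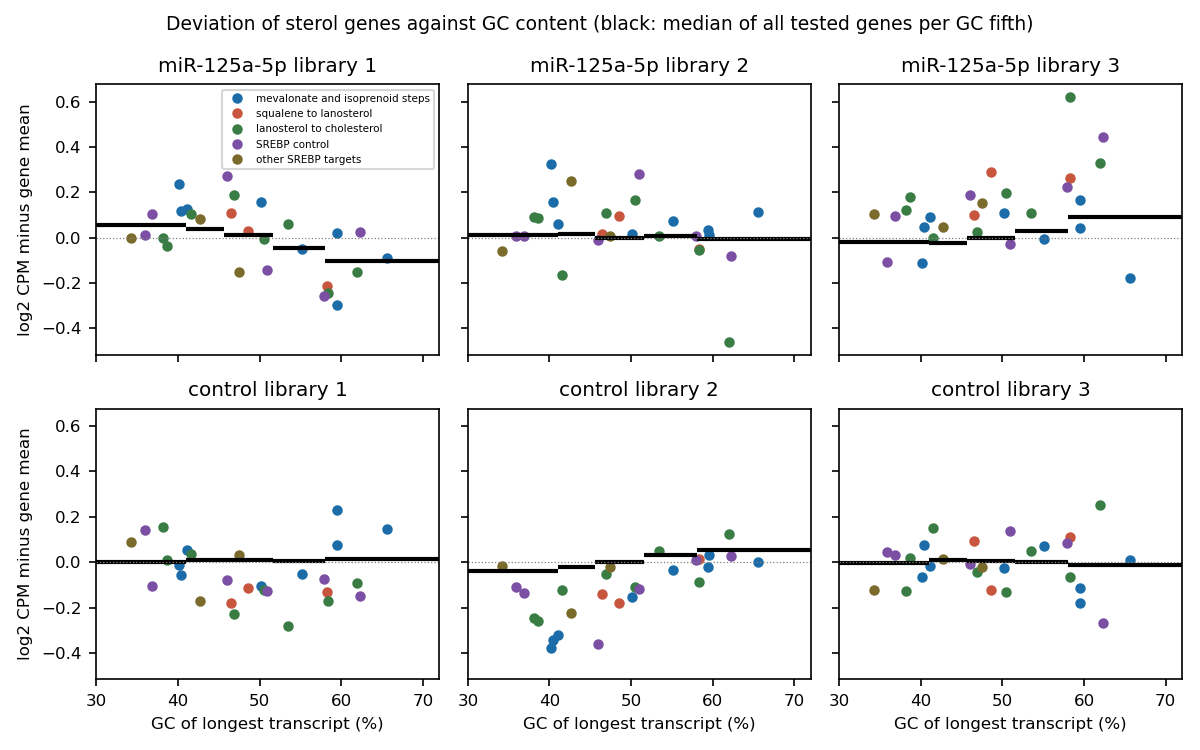
Deviation of each sterol gene (log2 CPM minus its mean over 6 libraries) against the GC content of its longest transcript, one panel per library, with miR-125a-5p libraries in the upper row. Black bars give the median of all tested genes in each GC quintile: they slope down in miR-125a-5p library 1 and up in miR-125a-5p library 3 and control library 2.

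The genes with a match to the seed were set beside those without. The 6 genes with a match of 7 bases printed above had a median log2 fold change of 0.00, with 3 positive and 3 negative, and values from -0.17 for TM7SF2 to 0.28 for SCAP. The 3 negative values were each smaller than their SE: MVK -0.07 (SE 0.40), TM7SF2 -0.17 (SE 0.35) and SREBF2 -0.00 (SE 0.11). MVK and TM7SF2 also had the fewest reads of the 28. In the shortest annotated 3′ UTR only 2 of the 6, DHCR7 and SREBF2, held such a match. The 22 without one in the longest 3′ UTR had a median of 0.14, with 19 positive and 3 negative. Whether the sets differ was not tested. GC content differed between these sets too, at a median of 58.9% in the 6 and 46.2% in the 22, and 5 of the 6 were in the top GC quintile. In 5 of the 6 the highest library was miR-125a-5p library 3, and the median deviation of the 6 was -0.23 in miR-125a-5p library 1, -0.05 in library 2 and 0.30 in library 3. The 22 others had 0.05, 0.07 and 0.10 in the same libraries, so the miR-125a-5p libraries were farther apart for the 6 than for the 22. The part of GC content in these values was not tested.

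Promoters were described because SREBP2 acts there together with NF-Y and Sp1. RefSeq promoters, 250 bases before to 50 after each start on GRCh38.p14, were matched for 25 of the 28 genes, all but ACAT2, FDFT1 and SQLE. Each motif was searched on both strands. Some genes had more than 1 promoter, and a gene counted as holding a motif if any of its promoters did. The SREBP2 motif TCACNCCAC was in 1 of the 25, SREBF2 itself, and in 1.46% of 11451 tested genes with a promoter. In SREBF2 it began 133 bases before the start site, on the same strand as the gene, and is printed with its flanks because this gene is known to be driven by its own product.
SREBF2 promoter, chr22:41832962-41832991, plus strand, motif in capitals: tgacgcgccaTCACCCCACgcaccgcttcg
The NF-Y motif CCAAT was in 17 of the 25 (68%), against 42.9% of the tested genes, and in SREBF2 its start lay 27 bases from that of the SREBP2 motif. The Sp1 motif GGGCGG was in 22 of the 25 (88%), against 72.3% of the tested genes. The SREBP2 and NF-Y matches there do not overlap. A match describes the sequence only, and a promoter without one says nothing of binding, since these letters leave out variant sites.

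Genes around the pathway were counted in the same fit, in which 50.2% of all genes had a positive log2 fold change and 2.69% were higher at an unadjusted p under 0.05. Of 9 tested genes of fatty acid synthesis, the branch driven mainly by the related factor SREBP1, 9 had a positive log2 fold change, with a median of 0.13, 0 passed and 2 were at an unadjusted p under 0.05. These were ACLY, which supplies acetyl-CoA to both pathways, at 252 ± 19.8 CPM in miR-125a-5p and 218 ± 15.9 CPM in control libraries (log2 fold change 0.21, SE 0.09, edgeR adjusted p = 0.799), and the elongase ELOVL5, at 175 ± 1.34 CPM in miR-125a-5p and 152 ± 4.78 CPM in control libraries (0.20, SE 0.09, edgeR adjusted p = 0.801). The sterol genes and this list thus had like medians, and whether the lists differ was not tested. Of 12 genes that use isoprenoids, 8 were positive and 4 negative, with a median of 0.10 and 0 passed. The smallest p was that of NUS1, a subunit of the enzyme that makes dolichol, at 129 ± 8.47 CPM in miR-125a-5p and 108 ± 11.9 CPM in control libraries (log2 fold change 0.26, SE 0.10), followed by the CAAX protease ZMPSTE24 at 271 ± 23.8 CPM in miR-125a-5p and 248 ± 11.04 CPM in control libraries. Of 15 genes of redox supply and sterol handling, 9 were positive and 6 negative, with a median of 0.03 and 0 passed. RNF139, a ubiquitin ligase of the endoplasmic reticulum that binds INSIG proteins, had 17.5 ± 2.34 CPM in miR-125a-5p and 13.8 ± 1.498 CPM in control libraries, and ERG28, a scaffold of the demethylation complex, 44.9 ± 1.58 CPM in miR-125a-5p and 39.3 ± 4.31 CPM in control libraries. Of the 6 promoter factors that act with SREBP2, 3 were positive and 3 negative, with a median of -0.01 and 0 passed. SP1 had 379 ± 13.3 CPM in miR-125a-5p and 412 ± 6.79 CPM in control libraries (log2 fold change -0.12, SE 0.09), and NFYB 13.6 ± 1.75 CPM in miR-125a-5p and 11.4 ± 0.892 CPM in control libraries (0.26, SE 0.20).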

How the data were processed

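RNA sequencing of THP-1 cells gave 6 libraries of 8256149 to 10257791 counts. The authors deposited raw counts per gene. The submitters' processing notes name bcl2fastq, TopHat and edgeR, and the build hg19. They name no counting tool, annotation or strand setting. Of 26347 identifiers, 26204 (99.46%) matched a RefSeq gene table (GRCh38.p14, names only), and 0 columns belonged to no library. These counts went into edgeR 4.0.16 under R 4.3.3 (filterByExpr, trimmed mean of M-values, glmQLFit and glmQLFTest, no covariate, Benjamini-Hochberg over 14731 genes, threshold 0.05). The SE is the size of the log2 fold change over the square root of F. Log2 CPM used a prior count of 2. TPM used the joined exon length of all coding transcripts of a gene in the GENCODE 29 basic set. That annotation may differ from that of the counts. The scripts were tested on simulated data. All 28 members were named, and of each other list up to 2 genes with the smallest p. The members and lists were chosen with earlier results of these data known, and lists were described by counts and medians, with no test. Alternatives covered normalization, filter, test (DESeq2 1.42.0, limma 3.58.1), threshold, replicate block, each library left out and, added later, the GC trend (loess, span 0.5, 12890 genes with a value).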

Additional observations from a re-analysis of the deposited data

How the results depend on the processing

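No sterol gene passed under any alternative run, and 17 of 28 kept the sign of their log2 fold change in all of them. Genes called over the whole table, 0 higher and 4 lower, became 2 and 11 with DESeq2, 4 and 17 with edgeR's likelihood ratio test, 11 and 41 with no filter, and 0 and 7 at a threshold of 0.1. Leaving out 1 library gave 0 to 2 higher and 3 to 14 lower, the most without control library 3. Leaving out 1 library also moved the median of the sterol genes between 0.0721 and 0.182 and their count at an unadjusted p under 0.05 between 1 and 6. With the replicate number as a block, 0 were called higher and 9 lower, and with the GC trend removed as well 1 and 12. The replicate numbers are not paired in the labels. Deviations of same-numbered libraries correlated at 0.056, 0.014 and -0.016, and those of unlike number at -0.0635 to 0.046. So few values cannot decide whether the numbers pair the samples. Not every library correlated best with its own number. The block gave a sterol median of 0.14 and changed no call among sterol genes. With the shortest annotated 3′ UTR, 2 sterol genes held a match of 7 bases in place of 6. With the GC trend removed, and with the block as well, SREBF2 had 0.0123 and 0.006 and STARD4 -0.0182 and -0.0189, the other sign from the values above. Over the fits that left out 1 library the ranges that crossed 0 were -0.176 to 0.0614 for MVK, -0.0283 to 0.0949 for PMVK, -0.0266 to 0.0479 for FDPS, -0.133 to 0.113 for LSS, -0.111 to 0.0269 for CYP51A1, -0.426 to 0.0076 for TM7SF2, -0.0383 to 0.430 for DHCR7, -0.13 to 0.11 for SREBF2, -0.0566 to 0.171 for MBTPS1, -0.0211 to 0.0827 for STARD4 and -0.0704 to 0.0813 for LPIN1. The cause of these moves was not tested. Depth limits MVK and TM7SF2 most, with 18 to 32 and 24 to 40 reads per library.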
